A study of Homo sapiens with 6 samples.

Results

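Clusterin and 8 complement components and regulators (CLU, C3, CFB, C1R, C1S, SERPING1, CD46, CD55 and CD59) were looked up by gene symbol in an array study of ovarian cancer cell lines. Probe sets named for CLU, C3 and CFB were found, 1 for each, so 3 of the 9 listed genes could be analysed, out of 14884 named genes. The other 6, C1R, C1S, SERPING1, CD46, CD55 and CD59, were not analysed here, because no probe set was named for them in the platform annotation used. Whether any of the 37519 unnamed probe sets measures them was not tested. The members were chosen by name, with results of these data in view, and CLU was selected on its measured differences between transfections. Those differences are therefore given as a description.

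The groups were cells transfected with miR-135a-3p, 1 array for each of ES-2, OVCAR-3 and SKOV-3, against cells transfected with miR-blank, the control, again 1 array for each of these 3 human ovarian cancer lines. Nothing else about the genotype or treatment of the lines, the dose, the form of the transfected material or the time of harvest is given in the sources used here. Values are normalised log2 signals, in which a step of 1 is 2-fold, and a difference between transfections is miR-135a-3p less miR-blank throughout. Values of several lines run in the order ES-2, OVCAR-3, SKOV-3. The 3 lines are the replicates of that comparison, and the 2 arrays of a line come from the same line.

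Complement is a cascade of plasma proteins that marks surfaces for removal and can punch pores in membranes. C3 is the component on which all its routes converge, and factor B, encoded by CFB, supplies the protease of the alternative route's C3 convertase, the enzyme that cleaves further C3. Clusterin is a secreted chaperone that binds misfolded proteins and also binds the terminal complex of complement, which keeps that complex out of membranes. The liver makes most plasma complement, and epithelial cells, ovarian cancer cells among them, can also make C3 and factor B. In many cell types C3 and CFB are known to be induced by inflammatory cytokines such as TNF and by interferon.

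The transfected arm and the 3p arms of the related hairpins are shown because their seeds, bases 2 to 8 and printed here in capitals, differ. Sequences are from RefSeq, build GRCh38.p14, written 5′ to 3′.
hsa-miR-135a-3p: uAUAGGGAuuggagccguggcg
hsa-miR-135a-2-3p: aUGUAGGGauggaagccaugaa
hsa-miR-135b-3p: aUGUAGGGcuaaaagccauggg
miR-135a-3p has the seed AUAGGGA, whereas the 3p arms from MIR135A2 and MIR135B share the seed UGUAGGG. It is encoded on the minus strand of chromosome 3 at chr3:52294232-52294253, in MIR135A1. The MIR135A1 probe set read 12.57, 12.20 and 11.58 after miR-135a-3p and 1.75, 2.26 and 2.07 after miR-blank in the 3 lines. Transcript sequences were not used here, so sites for this seed in CLU, C3 or CFB were not looked for.

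Array medians lay between 4.16 and 4.23. The values carry no detection calls, so a signal near the median cannot be told from background. Of the cell type markers, CD14, CSF1R and LYZ of leukocytes read between 2.35 and 4.89 on all arrays, the endothelial PECAM1, VWF and KDR between 3.87 and 4.91, and the hepatocyte genes ALB, APOA1 and AHSG between 3.60 and 4.76. The leukocyte genes CD68 and TYROBP and the hepatocyte gene TTR stood above these ranges. Of the markers of ovarian cancer lines, KRT18 was well above the array medians on all arrays, VIM in ES-2 and SKOV-3, and PAX8 in SKOV-3. In OVCAR-3 VIM read 5.54 after miR-135a-3p and 5.08 after miR-blank, and KRT7 read 4.85 and 3.82. KRT8 lay between 5.29 and 6.75 and WT1 between 5.59 and 7.15 on the 6 arrays, while EPCAM read between 3.78 and 4.32. Summed over its named genes on the linear scale and put back in log2, the leukocyte list lay between 7.96 and 10.32 after miR-135a-3p and between 8.10 and 10.49 after miR-blank, with CD68, at 7.29 to 10.40, the brightest of its genes on every array. The sums lay, in the same order of transfections, for the endothelial list between 5.81 and 5.91 and between 5.70 and 6.01, and for the hepatocyte list between 6.44 and 6.64 and between 6.49 and 7.12. The list of ovarian cancer line markers lay between 10.42 and 11.74 after miR-135a-3p and between 10.45 and 11.74 after miR-blank.

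CLU had the lower signal after miR-135a-3p in each line, and C3 and CFB had a much lower signal after miR-135a-3p in SKOV-3 alone. In SKOV-3 the signal was 4.71-fold lower for C3, 3.42-fold lower for CFB and 1.58-fold lower for CLU. In ES-2 and OVCAR-3 the differences of C3 and CFB were small and lay on either side of 0. The plot of signals by line and transfection shows all 18 values.

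**Figure D1:**
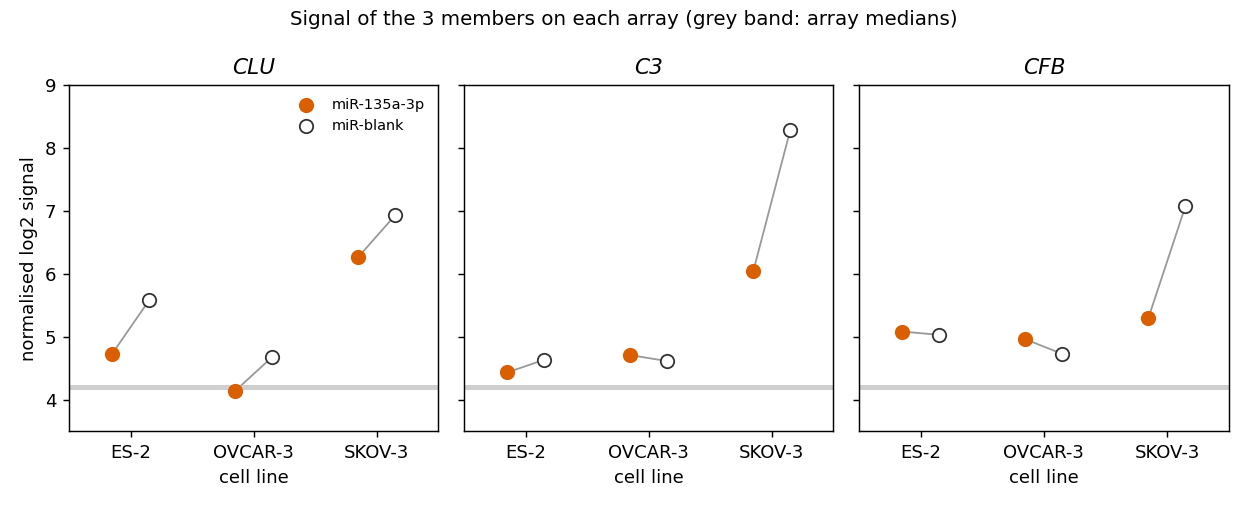
Normalised log2 signal (y axis) of CLU, C3 and CFB in each cell line (x axis), with 1 point per array, filled for miR-135a-3p and open for miR-blank, and a line joining the arrays of a cell line. CLU is lower after miR-135a-3p in every line, while C3 reads 6.05 against 8.29 and CFB 5.30 against 7.07 in SKOV-3 and both stay near 5 or below elsewhere.

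For clusterin, the secreted chaperone, CLU read 4.73, 4.14 and 6.27 after miR-135a-3p and 5.58, 4.68 and 6.93 after miR-blank in the 3 lines. Within each line the miR-135a-3p array was the lower, but the groups overlap, since SKOV-3 after miR-135a-3p reads above ES-2 and OVCAR-3 after miR-blank. The log2 differences were −0.85 in ES-2 and −0.54 in OVCAR-3, with −0.66 in SKOV-3, and their mean was −0.68 ± 0.16 (SD, n = 3 lines). These are 1.80-fold, 1.45-fold and 1.58-fold lower signals. In OVCAR-3 the miR-135a-3p array lay below its array median, and the true size of that difference is open to doubt. Of the tested genes 64 had a lower difference than CLU in ES-2 and 258 in OVCAR-3, with 456 in SKOV-3.

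For C3, the central component, the arrays after miR-135a-3p read 4.43, 4.71 and 6.05 and those after miR-blank 4.64, 4.61 and 8.29 in the same order of lines. The SKOV-3 arrays stood above the other 4, and the SKOV-3 miR-blank array stood above all. The log2 differences were −0.20, 0.10 and −2.24, with a mean of −0.78 ± 1.27 (SD, n = 3 lines), so the spread between lines exceeds the mean. Without SKOV-3 the mean was −0.05. In SKOV-3, 9 of 8620 tested genes had a lower difference than C3.

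For CFB, the protease subunit of the alternative convertase, the signals were 5.08, 4.96 and 5.30 after miR-135a-3p and 5.03, 4.73 and 7.07 after miR-blank. Of the 6 arrays, 5 lay between 4.73 and 5.30, and the SKOV-3 miR-blank array lay apart. The log2 differences were 0.05, 0.23 and −1.77 in the 3 lines, with a mean of −0.50 ± 1.11 (SD, n = 3 lines). Without SKOV-3 the mean was 0.14, the opposite direction. In SKOV-3, 29 tested genes had a lower difference than CFB.

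At least 2-fold lower signals after miR-135a-3p were seen for 2 of the 3 members in SKOV-3, where 1.66% of the 8620 tested genes were that much lower. In ES-2 and OVCAR-3 there were 0 such members, against 0.51% and 0.383% of genes. A lower signal in all 3 lines was seen for 1 member, CLU, against 13.4% of genes. limma, fitted across all tested genes with the line as a block, called 0 of 3 members at an adjusted p under 0.05, against 0.0116% of genes. At an unadjusted p under 0.05 there was 1 member, CLU, against 2.91% of genes. These values were known when the members were chosen. All 3 members also passed the filter, a mean log2 signal of at least 5, only through their SKOV-3 arrays. Nothing is therefore read from these shares, or from the ranks of the members among tested genes. More genes differed in SKOV-3, where 4% were apart by at least 2-fold in either direction, against 0.673% in ES-2 and 0.673% in OVCAR-3. With 1 array per line and transfection, a difference within a line has no replicate check, and its cause was not tested.

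**Figure D2:**
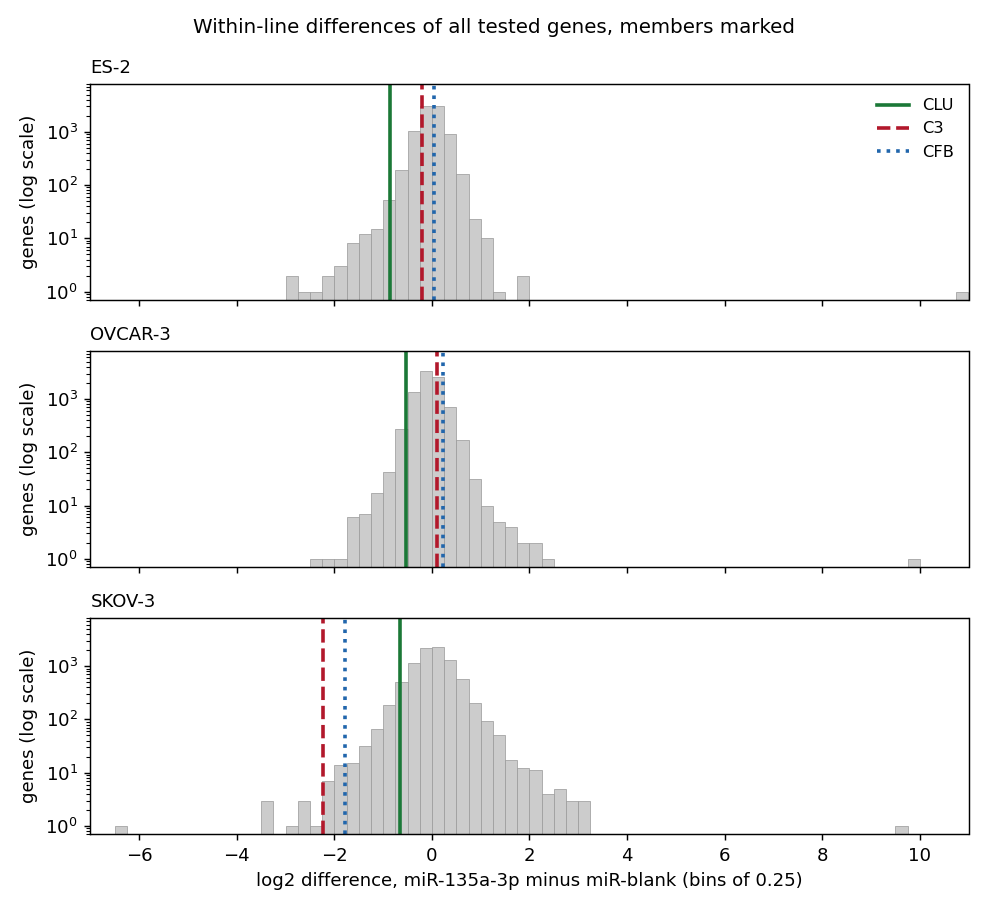
Log2 difference, miR-135a-3p minus miR-blank (x axis, bins of 0.25), against the number of tested genes on a log scale (y axis), in a panel for each line, with vertical lines for CLU (solid), C3 (dashed) and CFB (dotted). In SKOV-3 C3 at −2.24 and CFB at −1.77 lie in the lower tail, and CLU lies at −0.85, −0.54 and −0.66 in the 3 lines from top to bottom; the lone gene above 9 is MIR135A1.

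Between the lines, all 3 members had their highest mean signal in SKOV-3, and the difference from both other lines was called for CLU and C3. CLU averaged 5.15 in ES-2 and 4.41 in OVCAR-3, with 6.60 in SKOV-3, in the order SKOV-3, ES-2, OVCAR-3 from high to low. C3 averaged 4.53 in ES-2 and 4.66 in OVCAR-3, with 7.17 in SKOV-3. CFB averaged 5.06, 4.84 and 6.19 in these lines. The filter required a mean of at least 5 over the 6 arrays, and all 3 members passed it only through SKOV-3, their means over the other 4 arrays being 4.78, 4.60 and 4.95 for CLU, C3 and CFB. A difference from SKOV-3 was therefore built into the tested set, and the p-values of the members between lines are given also for the fit without a filter, on all 14884 named genes. Where an array is left out and a line has 1 array, that array is taken to vary like the others.

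ES-2 had 2.72-fold less CLU signal than SKOV-3, a log2 difference of −1.45 ± 0.17 (SE), with a limma adjusted p of 0.0024 and, without the filter, 0.00289. In OVCAR-3 against SKOV-3 it was 4.56-fold lower, a log2 difference of −2.19 ± 0.17 (SE), with an adjusted p of 0.000361 in limma and 0.000472 without the filter. CLU read 4.14 and 4.68 in OVCAR-3 and 4.73 after miR-135a-3p in ES-2, within the range of the endothelial markers. The true size of both differences is therefore open to doubt. The difference of CLU was −1.54 on the miR-135a-3p arrays and −1.35 on the miR-blank arrays in ES-2 against SKOV-3, and −2.13 and −2.25 in OVCAR-3 against SKOV-3, so it was of like size under either transfection. ES-2 minus OVCAR-3 was 0.74 ± 0.17 (SE), with a limma adjusted p of 0.0193 and 0.0279 without the filter, under the 2-fold required for a call. That p was not under 0.05 when any 1 of the ES-2 and OVCAR-3 arrays was left out (limma adjusted p from 0.0812 to 0.214), without the transfection term (0.145) or without variance moderation (0.13). The lower ES-2 array, at 4.73, lay next to the higher OVCAR-3 array, at 4.68, so the order of ES-2 and OVCAR-3 is not settled for CLU.

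C3 differed by −2.63 ± 0.52 (SE) in ES-2 against SKOV-3, with a limma adjusted p of 0.016 and 0.0194 without the filter. In OVCAR-3 against SKOV-3 it differed by −2.51 ± 0.52 (SE), also with a limma adjusted p of 0.016 and 0.0212 without the filter. C3 in ES-2 and OVCAR-3 lay within the range of the endothelial markers over all arrays, 3.87 to 4.91. Its level there cannot be told from background, so the true size of these differences cannot be told either. On the miR-135a-3p arrays the differences were −1.62 and −1.34 for ES-2 and OVCAR-3 against SKOV-3, and on the miR-blank arrays they were −3.65 and −3.67. Without the OVCAR-3 miR-blank array, OVCAR-3 minus SKOV-3 was −1.85 and no longer called, with a limma adjusted p of 0.143, and 0.12 without the filter. Without the ES-2 miR-blank array, ES-2 minus SKOV-3 was −2.20, with a limma adjusted p of 0.0349, and was not called without the filter, at 0.087. ES-2 and OVCAR-3 differed by −0.13 ± 0.52 (SE), within the scatter (limma adjusted p 0.888, and 0.917 without the filter). Without the SKOV-3 miR-blank array the differences of ES-2 and OVCAR-3 from SKOV-3 were −1.54 and −1.42. That fit takes its spread from the ES-2 and OVCAR-3 arrays only, where C3 cannot be told from background. No call is therefore read from it. The 2 SKOV-3 arrays themselves had an SD of 1.58 for C3.

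CFB was not called between any lines. Its differences were −1.13 ± 0.46 (SE) in ES-2 against SKOV-3 (limma adjusted p 0.134, and 0.173 without the filter) and −1.34 ± 0.46 (SE) in OVCAR-3 against SKOV-3 (limma adjusted p 0.0812, and 0.109 without the filter). On the miR-135a-3p arrays these differences were −0.22 and −0.34, and on the miR-blank arrays −2.04 and −2.35. The size differed with the SKOV-3 array kept, and CFB passed the filter only through that line. With the SKOV-3 miR-blank array alone they were −2.09 and −2.30. With the SKOV-3 miR-135a-3p array alone they were −0.17 and −0.39. A fit with 1 SKOV-3 array takes its spread from the ES-2 and OVCAR-3 arrays only, so no p is given for it. Without either ES-2 array, OVCAR-3 minus SKOV-3 kept its size and had a limma adjusted p of 0.0325, but 0.0793 without the filter. ES-2 minus OVCAR-3 was 0.21 ± 0.46 (SE), with a limma adjusted p of 0.779, and 0.829 without the filter.

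Of the 3 members, 2 were called between ES-2 and SKOV-3, both lower in ES-2, where 12.1% of tested genes were called and 7.29% were called lower. Between OVCAR-3 and SKOV-3, 2 were called, both lower in OVCAR-3, where 14.6% of genes were called and 8.96% were called lower. The members passed the filter only through SKOV-3, so nothing is read from these counts beside these shares. Between ES-2 and OVCAR-3, 0 were called, against 16.5% of genes. In that last comparison limma gave 1 member, CLU, an adjusted p under 0.05 without the required fold. Without variance moderation limma called 0 members in each comparison, with adjusted p of 0.117 and 0.0908 for CLU and of 0.271 in both comparisons for C3. The 2 arrays of each line received different transfections, and the fit between lines removes only the transfection difference that the lines share. The p-values therefore measure the scatter about that shared difference. For C3 and CFB this scatter includes the transfection difference seen in SKOV-3 alone. The labels do not say whether the 2 arrays of a line are from separate cultures, so part of the scatter may be technical.

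Most other complement genes did not pass the filter on dim genes. Of 49 genes in lists of the classical and lectin pathways, the alternative pathway and terminal components, other regulators, and receptors, 29 were named and 6 passed the filter. The other 23 read between 1.25 and 5.69 on the 6 arrays. The 6 tested genes had median differences of 0.17 in ES-2 and −0.07 in OVCAR-3, with −0.07 in SKOV-3, beside −0.01, −0.05 and 0.02 over all tested genes. limma called 0 of them between transfections, against 0.0116% of tested genes. Of the 6, 0 were lower in all 3 lines, against 13.4% of tested genes, and 0 were higher in all 3, against 9.54%, and nothing is read from counts this small.

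CFD, the protease factor D that cleaves factor B, read 5.94, 7.19 and 7.46 after miR-135a-3p and 6.63, 7.15 and 7.95 after miR-blank in the 3 lines. Its differences were −0.69, 0.04 and −0.49. COLEC12, a scavenger receptor with a collectin domain, was bright in ES-2, at 11.18 after miR-135a-3p and 10.53 after miR-blank. It read between 3.10 and 3.58 on the other 4 arrays and passed the filter only through ES-2. THBD, thrombomodulin, which supports the inactivation of C3b on endothelium, differed by 1.21 in SKOV-3, the opposite direction to C3 and CFB. There it read 6.73 after miR-135a-3p and 5.52 after miR-blank. On the ES-2 and OVCAR-3 arrays THBD read between 4.38 and 4.79, so it passed the filter only through SKOV-3. The ficolins FCN1 and FCN3, which start the lectin route, and the receptor CD93 read between 4.74 and 5.59 on all arrays. C5, the component cleaved after C3, was below the filter and is named after its values were seen, at 5.59 and 5.45 in ES-2 and at 4.45 or less in the other lines.

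Among genes that induce complement or report on the same signals, TNF, IRF1 and LCN2 also read at least 2-fold lower after miR-135a-3p in SKOV-3. TNF, an inflammatory cytokine, read 4.40, 4.51 and 4.68 after miR-135a-3p and 4.48, 4.70 and 7.25 after miR-blank in the 3 lines. As with CFB, the SKOV-3 miR-blank array stood apart and the other 5 lay close together, and TNF likewise passed the filter only through that line. IRF1, an interferon and NF-kB responsive transcription factor, read 5.92 after miR-135a-3p and 7.10 after miR-blank in SKOV-3, a difference of −1.18, with −0.13 in ES-2 and 0.26 in OVCAR-3. LCN2, an acute phase protein, read 5.12 after miR-135a-3p and 6.25 after miR-blank in SKOV-3, a difference of −1.13, and between 5.05 and 5.45 on the arrays of the other lines. Of the genes for NF-kB subunits, NFKB1 read 8.75 on both SKOV-3 arrays, and RELA differed by 0.02 in SKOV-3 and by −0.67 in OVCAR-3. The activity of NF-kB was not tested. STAT3 differed by −0.50 in SKOV-3, and SOCS3, a feedback inhibitor of STAT signalling, by −0.15. NFKB1 and SOCS3 fall outside the naming rule and were chosen after their values were seen.

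Of the 18 genes on the list of inducing cytokines and factors, 8 were named and 7 passed the filter. In SKOV-3, 2 of the 7 were at least 2-fold lower after miR-135a-3p, against 1.66% of tested genes, and in ES-2 and OVCAR-3 0 were, against 0.51% and 0.383%. TNF, among these 2, passed the filter only through SKOV-3, and the list was chosen with earlier results known. Nothing is read from these shares. The list's medians were −0.13 in ES-2 and −0.19 in OVCAR-3, with −0.15 in SKOV-3, beside −0.01, −0.05 and 0.02 over all tested genes. OSMR, the receptor chain for oncostatin M, averaged 9.15 in ES-2 and 9.25 in SKOV-3 but 3.41, below the array median, in OVCAR-3. It was named for the range of its line means. Of 16 acute phase proteins, 11 were named and LCN2 alone passed the filter, the other 10 reading between 1.57 and 4.71. Of the 5 named leukocyte markers in SKOV-3, CD68, a lysosomal protein, read 10.20 after miR-135a-3p and 7.96 after miR-blank. TYROBP read 5.87 and 5.17, while CD14, CSF1R and LYZ were dim and differed by 0.08, 0.01 and −0.47. Of the markers of ovarian cancer lines, the keratin KRT7 read 4.87 after miR-135a-3p and 6.40 after miR-blank in SKOV-3, a difference of −1.53. The keratins KRT8 and KRT18 went the other way there, by 0.62 and 0.59. WT1 read 7.15 after miR-135a-3p and 6.14 after miR-blank in SKOV-3, VIM differed by 0.53 and PAX8 by −0.68. In bulk RNA, fewer cells making a transcript and less transcript per cell cannot be told apart. The part of these genes or cells in the C3 and CFB values was not tested.

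**Figure D3:**
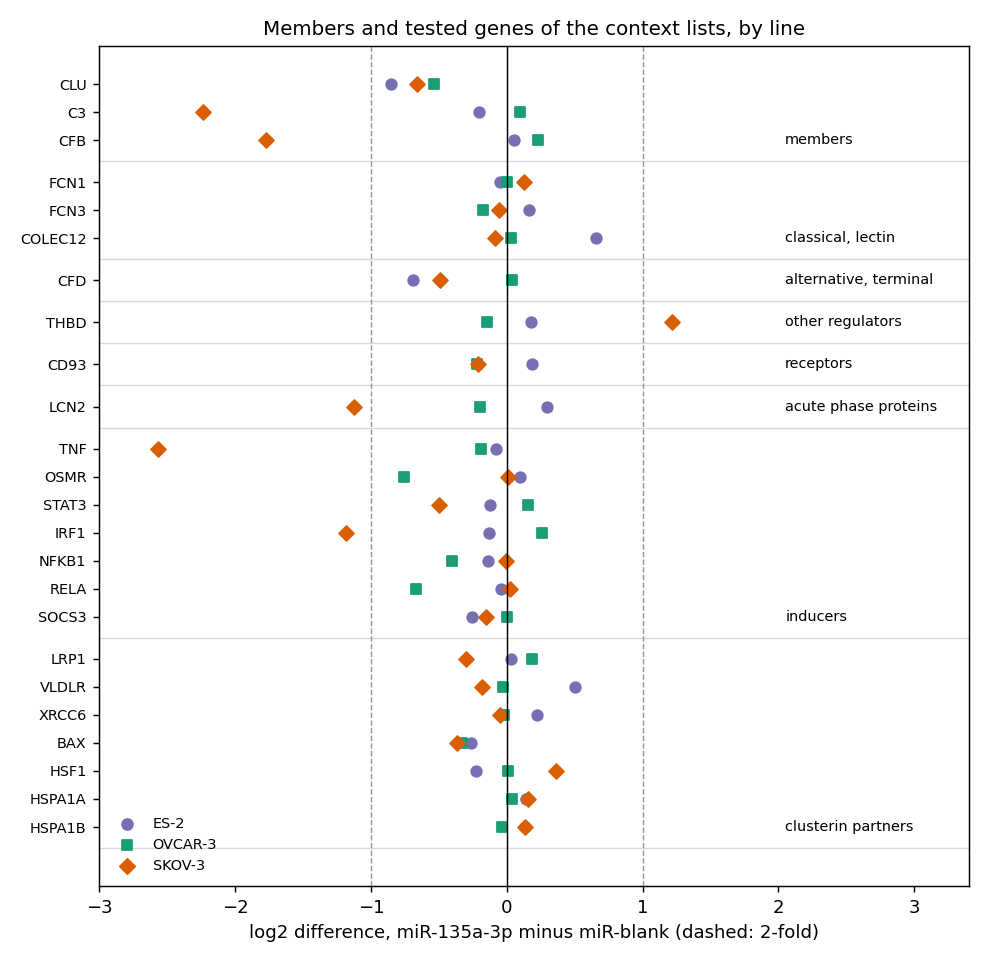
Log2 difference, miR-135a-3p minus miR-blank (x axis), of the members and of each tested gene of the complement, inducer, acute phase and clusterin lists, cell type markers not drawn (rows), with a circle for ES-2, a square for OVCAR-3 and a diamond for SKOV-3, and dashed lines at 2-fold. In SKOV-3 C3, CFB, TNF, IRF1 and LCN2 lie left of the 2-fold line and THBD at 1.21 lies right of it, while CLU lies left of 0 in all 3 lines.

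Among receptors, partners and regulators of clusterin, 9 of 11 were named and 7 tested, with median differences of 0.13, −0.02 and −0.05, beside −0.01, −0.05 and 0.02 over all tested genes. BAX, the pro-apoptotic protein that clusterin is reported to bind, was the 1 gene of the list lower in all 3 lines, with a mean of −0.32 ± 0.05 (SD, n = 3 lines), and over all tested genes 13.4% were. HSPA1A, a heat shock gene, was the 1 gene higher in all 3 lines, with a mean of 0.11 ± 0.07 (SD, n = 3 lines), against 9.54% of tested genes. These shares of the list are near those of all genes. HSPA1A and HSPA1B are near-identical copies whose signals are uncertain. HSF1, the heat shock factor, differed by −0.22, 0.01 and 0.36. VLDLR, a lipoprotein receptor family member, averaged 7.01 in ES-2 and 6.65 in SKOV-3 but 3.47, below the array median, in OVCAR-3. It too was named for the range of its line means. LRP1, of the same family, averaged 6.64, 7.78 and 6.89, highest in OVCAR-3. limma called 0 of the 7 between transfections.

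The genes whose signal followed CLU and C3 most closely over the 6 arrays were taken by Pearson's r over all tested genes, as a description in which the pairs of a line share that line. For CLU these were PDGFB, a growth factor (0.994), HGSNAT, a lysosomal acetyltransferase (0.992), TRAPPC5, a vesicle tethering subunit (0.991), VSIG10 (0.989) and VPS26A, a retromer subunit (0.987). HGSNAT read 7.47, 7.09 and 8.23 after miR-135a-3p and 7.83, 7.51 and 8.73 after miR-blank, lower after miR-135a-3p in all 3 lines like CLU but by less. For C3 these were SNX9, a sorting nexin (0.997), ZC3H12A, a ribonuclease that degrades inflammatory transcripts (0.996), PDZK1IP1 (0.992), ZNF577 (0.992) and the read-through pseudogene DTX2P1-UPK3BP1-PMS2P11 (0.991). ZC3H12A read 5.86, 5.89 and 6.76 after miR-135a-3p and 5.97, 6.08 and 8.02 after miR-blank. Among the members, r was 0.959 between C3 and CFB, 0.864 between CLU and C3 and 0.80 between CLU and CFB.

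**Figure D4:**
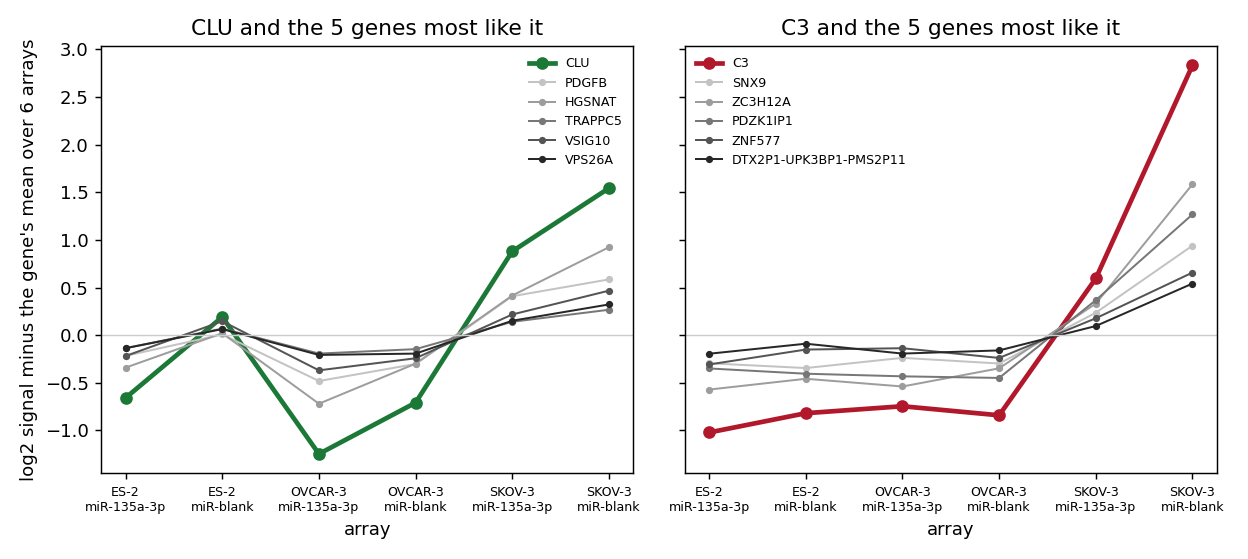
Log2 signal minus the gene's own mean over the 6 arrays (y axis) on each array (x axis), for CLU and for C3 in colour and for the 5 genes most like each in grey. CLU and its likes form a step down after miR-135a-3p in each line, and C3 and its likes stand out on the SKOV-3 arrays, most on the miR-blank one.

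Of the 3 members, 1 had an entry in the promoter table, CFB. Its upstream stretch is shown because CFB, TNF and IRF1 were all lower after miR-135a-3p in SKOV-3. It covers the 250 bases before the annotated start on the plus strand of chromosome 6, chr6:31945845-31946094 in GRCh38.p14 (RefSeq), with 2 motif matches in capitals.
CFB upstream: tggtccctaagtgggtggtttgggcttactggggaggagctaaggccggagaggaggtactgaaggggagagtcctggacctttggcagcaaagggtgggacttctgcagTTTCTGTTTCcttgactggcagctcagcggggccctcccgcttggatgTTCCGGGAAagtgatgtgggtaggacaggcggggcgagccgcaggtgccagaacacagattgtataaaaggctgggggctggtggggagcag
The stretch TTTCTGTTTC, at −140 to −131 from the start, matches the core of an interferon-stimulated response element, GAAA, any 2 bases and GAAA again, on the minus strand. The stretch TTCCGGGAA, at −92 to −84, matches the STAT motif TTCNNNGAA, which reads the same on both strands. The matches do not overlap. On both strands of the same 250-base window, the interferon-stimulated core was found in 3.02% and TTCNNNGAA in 6.57% of 35116 RefSeq promoters, and both together in 0.31%. For NF-kB only a strict form of the motif was searched, GGGA, any base and TTTCC, found in 0.527% of promoters. It had no match in these letters. Looser forms of the NF-kB motif were not searched, so whether the stretch holds one was not tested. A match is a run of letters and does not show that a factor binds there.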

How the data were processed

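Each of the 6 samples gave 1 array and 1 column of log2 signals, which the authors had normalised between arrays before deposit. Per the submitters' processing notes, the tools were RMA and Affymetrix Expression Console 1.4, with Transcriptome Analysis Console 3.0 also listed, none with a stated role. RMA equalises the arrays, so a shift shared by most genes would be removed. Of 53617 probe sets, 16098 had 1 gene symbol in the platform annotation, 0 had several and 37519 were unnamed here. Symbols were updated by Entrez identifier through RefSeq (GRCh38.p14). The probe set with the highest mean stood for a gene, and the 8620 genes with a mean log2 signal of at least 5 were tested.

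A limma model (version 3.58.1, R 4.3.3; lmFit, then eBayes), two-sided and at a Benjamini-Hochberg adjusted p under 0.05, compared transfections with the line as a block. Lines were compared with the transfection as a term, and a call there also needed 2-fold. The pairing rests on the shared cell line of the 2 arrays, whose deviations from group means had correlations of 0.90 in ES-2 and 0.91 in OVCAR-3, with 0.76 in SKOV-3. The procedure was run on simulated data, in which a gene had the same spread in every line and a transfection difference shared by the lines. C3 and CFB do not have that form, so the simulation does not bear on their p-values. Alternatives were other filters, normalizations and variance models, the mean over probe sets, no block or term, and each line or array left out. The named genes were the members, up to 4 tested genes per list with the largest mean difference and up to 4 with the widest range of line means, and the 5 genes most like CLU and C3; cell type markers were named for the check of the cells. A list of 6 secreted chaperones and serpins had 0 named genes. The members and lists were chosen with earlier results of these data known, and the promoter motifs after seeing the values. The number of arrays limits the precision.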

Additional observations from a re-analysis of the deposited data

How the results depend on the processing

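Differences of the members between transfections kept their direction, and 0 members were called, without a filter, under other normalizations and variance models, over the mean of probe sets and without the replicate block, where the CLU difference was −0.68 with a limma adjusted p of 1. The SKOV-3 differences ran from −2.25 to −2.20 for C3 and from −1.77 to −1.73 for CFB over the normalizations. With each line left out, CLU ran from −0.76 to −0.60, C3 from −1.22 to −0.05 and CFB from −0.86 to 0.14, CFB turning without SKOV-3. With each array left out, ES-2 minus OVCAR-3 ran from −0.78 to 0.53 for C3 and from −0.33 to 0.76 for CFB, changing direction, in both cases also without the filter (alternative added after seeing the data), where C3 was 0.31 and 0.53 without the ES-2 miR-blank and OVCAR-3 miR-135a-3p arrays and CFB −0.20 and −0.33 without the ES-2 miR-135a-3p and OVCAR-3 miR-blank arrays. The count called between OVCAR-3 and SKOV-3 ran from 1 to 3, and between ES-2 and SKOV-3 from 2 to 3, or without the filter from 1 to 3 in both, the 1 arising without the miR-blank array of ES-2 or of OVCAR-3, each for its own comparison. That count was 0 in both comparisons at a mean of at least 6, because the members are then not tested, and 0 in both without variance moderation.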

Other observations

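The neighbours of each member on its chromosome, chosen after the results were seen as the 3 nearest named protein-coding genes on each side, are given as values. In SKOV-3 all 6 neighbours of C3 on chromosome 19 read lower after miR-135a-3p, with log2 differences from −1.08 to −0.23, where 49.2% of all named genes read lower. In ES-2, 5 of the 6 read lower, with differences from −1.90 to 0.50, against 48.8% of genes, and in OVCAR-3 2 did, against 53.6%. Among them in SKOV-3, CD70, a TNF family ligand, read 10.02 after miR-135a-3p and 10.80 after miR-blank. The adaptor gene SH2D3A, which was under the filter, read 4.81 and 5.89 in SKOV-3. In ES-2, where C3 differed by −0.20, CD70 read 4.91 after miR-135a-3p and 6.81 after miR-blank. Of the 6 neighbours of CFB on chromosome 6, 5 read lower in SKOV-3, with differences from −0.49 to 0.25, where CFB differed by −1.77. In OVCAR-3, where CFB differed by 0.23, 5 also read lower, and in ES-2 2 did. The shares of all named genes are those given for C3. One neighbour of CFB is C2, the classical pathway's counterpart of factor B. It read 4.37 after miR-135a-3p and 4.41 after miR-blank in SKOV-3, near the array medians. The 6 neighbours of CLU differed by −0.13 to 0.29 in ES-2, by −0.16 to 0.18 in OVCAR-3 and by −0.34 to 0.51 in SKOV-3. These neighbours were not tested as groups.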
